A study of Mus musculus with 29 samples.

Results

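The wild-type caudate nucleus was compared between 18 and 12 months of age, in 4 mice against 5. The members were chosen by their labels, as wild-type mice of these ages, and make up 9 of the 29 arrays of a study that followed gene expression in the HdhQ150 model of Huntington's disease. In that model a long CAG repeat has been knocked into the mouse's own huntingtin gene, Htt. The wild-type mice were their littermates and carry no such allele. All animals had the mixed 129/Ola x C57BL6/J background, the labels give no treatment, and each array held total RNA of 1 mouse. The 12-month wild-type group held 4 females and 1 male, and the 18-month group held 4 females. Both ages were also measured in HdhQ150 mice (6 at 12 months, of which 2 were males, and 4 females at 18 months), and 5 wild-type mice (3 females and 2 males) were measured at 6 months. Mice of different ages were different animals, and the labels do not state the zygosity of the HdhQ150 mice or the day of each dissection, so age and any shared day of dissection or array cannot be told apart. The question that the comparison addresses is which genes change their level between these ages where the mutant allele is absent.

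The caudate nucleus is part of the striatum. Most of its neurons are projection neurons that release GABA, carry dopamine receptors and receive their excitatory input from the cerebral cortex and the thalamus. Neurons of the direct pathway express the dopamine receptor Drd1 with the peptides substance P (Tac1) and dynorphin (Pdyn), and neurons of the indirect pathway express Drd2 with enkephalin (Penk). The cortex lies over the striatum across a thin sheet of white matter. Its excitatory neurons express genes that striatal neurons lack, among them Slc17a7, which encodes a vesicular glutamate transporter, and the transcription factor Tbr1.

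The values are log2 levels, on which a difference of 1 is 2-fold, and differences are given as 18 minus 12 months. Array medians lay between 6.91 and 7.05 over the study. Precision is limited by how many arrays each group has. Genes typical of the labelled tissue were high in the 9 mice. Penk lay between 12.11 and 12.81 and Ppp1r1b, the dopamine-regulated phosphatase inhibitor of striatal neurons, between 10.95 and 11.76. The cortical gene Slc17a7 was also high, from 8.84 to 10.79 at 12 months and from 10.78 to 11.77 at 18 months. Striatal levels alone therefore do not show that the samples held no cortex. WT-454, the only male among the 9, stood apart: its mean correlation with the other 12-month mice was 0.959, against 0.982 to 0.986 for those mice and 0.989 to 0.991 for mice at 18 months. Its Xist level of 5.78, against 11.40 to 11.64 in the females of its group, matched its label. One mouse outside the comparison but in the fit, HdhQ150-1023 of the 6-month group, went against its label: it is labelled female and had an Xist level of 5.95, against 11.11 to 11.27 in the other females of that group. It was kept as labelled, and the sex term of the fit rests on the labels.

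Between 12 and 18 months 1171 of 19938 genes (5.87%) changed at an adjusted p under 0.05, of which 759 were higher at 18 months (3.81%) and 412 were lower (2.07%). By smallest p, those that rose were headed by Stmn2, Sphkap and Vsnl1, and those that fell by the retinoid receptor Rxrg, the immediate early gene Egr2 and the serotonin receptor Htr1b. The changes were small: the median difference was 0.41 among the genes that rose (1.33-fold) and -0.39 among those that fell (1.31-fold), and 34 genes changed at least 2-fold, 28 of them upwards. The levels of the 2 age groups did not overlap for 850 of the called genes (558 higher and 292 lower) and for 1330 of all genes (6.67%). Over all genes the median difference was -0.01, and 46.4% of genes had a difference above 0. At an unadjusted p under 0.05 there were 3099 genes (15.5%). Without WT-454 there were 1437 called genes, 1070 of them among the 1171. Without WT-401, an 18-month mouse, there were 696. A core of 576 genes (359 higher, 217 lower) passed whichever of the 9 mice was left out.

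**Figure D1:**
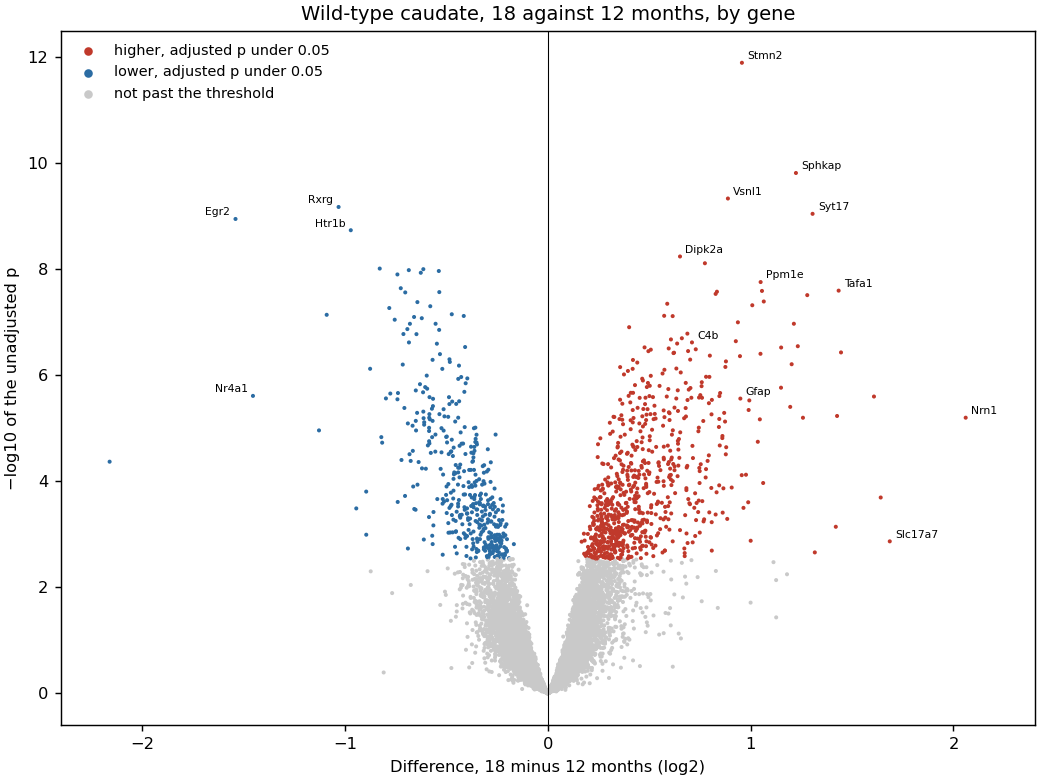
Difference between 18 and 12 months in wild-type mice (x axis, log2) against −log10 of the unadjusted p (y axis) for each of 19938 genes, 1 point per gene, with genes past an adjusted p of 0.05 in red (759 higher) and blue (412 lower). Stmn2 has the smallest p, Nrn1 the largest rise among labelled genes and Egr2 the largest fall among them.

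The leading 12 genes by p are described first, for each direction. In the values that follow, the 12-month mice come in the order WT-454, WT-461, WT-488, WT-508 and WT-527 and the 18-month mice in the order WT-400, WT-401, WT-414 and WT-431. Stmn2 encodes a tubulin-binding protein of axons and growth cones. Its level was 9.84, 10.32, 9.81, 9.85 and 10.00 at 12 months and 10.90, 10.99, 10.91 and 10.94 at 18 months. Every 18-month mouse lay above every 12-month mouse, and the difference was 0.96 ± 0.08 (SE; adjusted p = 2.57e-08). Sphkap, an anchoring protein for cAMP-dependent kinase, stood at 7.59, 8.41, 8.04, 8.04 and 8.02 and then at 9.12, 9.36, 9.24 and 9.36. It rose by 1.22 ± 0.13 (adjusted p = 1.54e-06), 2.33-fold. Vsnl1, a neuronal calcium sensor of the visinin family, was already among the brighter genes at 11.47 ± 0.16 (SD, n = 5) and reached 12.37 ± 0.11 (n = 4), a rise of 0.89.

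Syt17, a synaptotagmin, measured 7.37, 7.93, 7.22, 7.24 and 7.41 at 12 months and 8.85, 8.71, 8.88 and 8.45 at 18 months, a rise of 1.31 ± 0.15 (adjusted p = 3.62e-06). The secreted chemokine-like protein Tafa1 had the largest rise of these genes, 1.43 ± 0.19 (2.70-fold), from 7.76, 8.14, 7.08, 7.25 and 7.32 to 8.96, 9.12, 9.14 and 8.48. The other genes of this group include membrane and signalling proteins of neurons. Kcnj3, a subunit of the potassium channels that G proteins open, rose by 1.06, and Gabra3, an alpha subunit of the GABA receptor channel, by 0.83. Faah, which breaks down the endocannabinoid anandamide, rose by 0.83 and Ppm1e, a phosphatase that acts on calmodulin-dependent kinases, by 1.05. Egln3, an oxygen-sensing prolyl hydroxylase, rose by 0.77, Dipk2a by 0.65 and Fam81a by 1.28. None of these 12 genes had overlapping age groups, and all 12 stayed past the threshold without any 1 mouse (largest adjusted p 0.000399). They were chosen by smallest p in these same mice, so this adds no separate support. Of all called genes 72.6% had no overlap.

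Of the genes that fell, 2 of the leading ones are nuclear receptors for retinoids, whose signalling helps specify and maintain striatal projection neurons. Rxrg measured 10.23, 10.17, 10.56, 10.33 and 10.37 at 12 months and 9.46, 9.22, 9.29 and 9.24 at 18 months, and fell by 1.03 on the log2 scale (SE 0.11; adjusted p = 3.36e-06). Rarb fell by 0.83 on the same scale, from 10.04 ± 0.14 (n = 5) to 9.23 ± 0.10 (n = 4). Both genes separated the age groups without overlap. Htr1b, a serotonin receptor found on the terminals of striatal neurons, stood at 9.78, 10.14, 10.20, 10.29 and 10.28 and then at 9.24, 9.06, 9.30 and 9.18, a difference of -0.97 (SE 0.11).

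Egr2, a zinc finger transcription factor induced by neuronal activity, had the largest fall of these genes. Its level was 8.16, 8.44, 8.10, 8.57 and 8.66 at 12 months and 6.90, 6.67, 7.33 and 6.66 at 18 months. The difference was -1.54 ± 0.17 (SE; adjusted p = 3.78e-06), which is 2.91-fold. The others include proteins enriched in striatum or found at synapses. The differences were -0.54 for Ptpn5 (a tyrosine phosphatase enriched in striatum), -0.74 for Actn2 (an actin-binding protein of dendritic spines), -0.72 for Rasd2 (a small GTPase enriched in striatum), -0.69 for Cacng4 (an auxiliary subunit of AMPA receptors) and -0.70 for Kcnab1 (an auxiliary subunit of potassium channels). Zswim6 fell by 0.61. Ryr1, a calcium release channel, was 8.30, 8.39, 8.38, 8.52 and 8.43 at 12 months and 7.95, 7.80, 7.64 and 7.75 at 18 months, a difference of -0.63. Pdk4, a mitochondrial kinase that restrains the use of glucose, differed by -0.53. These 12 genes too had age groups that did not overlap and passed without any 1 mouse (largest adjusted p 0.000323). They were likewise chosen by smallest p, so this adds no separate support.

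**Figure D2:**
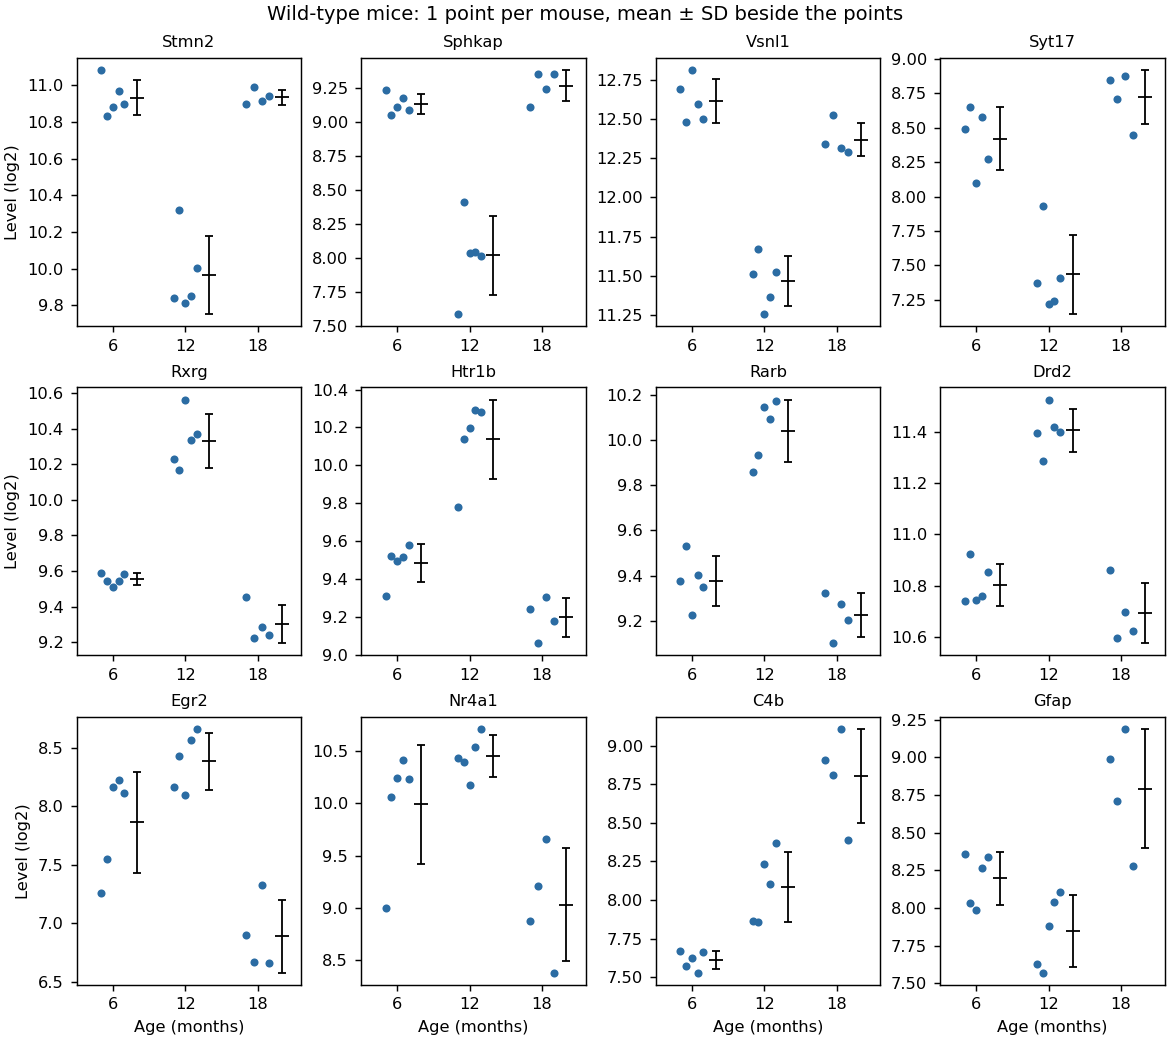
Log2 levels (y axis) of 12 genes in wild-type mice of 6, 12 and 18 months (x axis), 1 point per mouse, with the mean ± SD beside the points. The 12-month mice lie apart from both other ages for Stmn2, Sphkap, Vsnl1, Syt17, Rxrg, Htr1b, Rarb and Drd2, whereas the mean of Egr2 is lowest at 18 months and that of C4b is highest there.

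Markers of striatal projection neurons were lower at 18 months as a group. Of 29 measured, 24 fell and 0 rose, against 2.07% of all genes that fell, and the median difference was -0.53 against -0.01 over all genes. The age groups did not overlap for any of the 24, against no overlap in 72.6% of all called genes. The smallest p belonged to Rarb, Ptpn5, Actn2 and Rasd2, given above, and to Pde10a, the phosphodiesterase that degrades cyclic nucleotides in these neurons, which measured 11.96, 11.96, 12.23, 12.18 and 12.15 and then 11.52, 11.37, 11.50 and 11.43. The mean over the list was 10.14 to 10.35 in the 12-month mice and 9.59 to 9.91 in the 18-month mice. In bulk tissue, fewer cells of a type and less RNA per cell cannot be told apart. Leaving out each mouse in turn left 24 or 25 genes lower.

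In the direct pathway 4 of 9 markers fell: Drd1 by 0.61 (from 10.24 ± 0.08 to 9.63 ± 0.16), Slc35d3 by 0.59, the muscarinic receptor Chrm4 by 0.36 and the transcription factor Ebf1 by 0.52. Tac1 (difference -0.46, adjusted p = 0.0784) and Pdyn (-0.35, adjusted p = 0.143) did not pass. Of 11 indirect pathway markers 4 fell. Drd2 was 11.40, 11.29, 11.53, 11.42 and 11.40 at 12 months and 10.86, 10.60, 10.70 and 10.62 at 18 months, and fell by 0.71. Penk fell by 0.50, and the orphan receptors Gpr6 and Gpr52 by 0.69 and 0.65. No marker of either pathway rose, and over all genes 2.07% fell and 3.81% rose. Among 19 interneuron markers 4 fell and 1 rose. Chat, which makes acetylcholine, differed by -0.50, Slc5a7, the choline transporter of the same neurons, by -0.52, Nos1 (nitric oxide synthase) by -0.31 and the substance P receptor Tacr1 by -0.59. Vip, a peptide of cortical interneurons more than striatal ones, rose by 0.88. These calls were less steady: leaving out 1 mouse left 1 to 4 genes lower (1 without WT-401, 2 without WT-488, WT-508, WT-527 or WT-400) and 0 to 2 higher (0 without WT-488, WT-400 or WT-401, and 2 without WT-454, WT-461 or WT-431). Ebf1 and Chat did not pass without WT-401, and Slc5a7 passed in none of these repeats other than the one without WT-454.

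Markers of cortical excitatory neurons moved the other way. Of 14 measured, 7 rose and 0 fell, against 3.81% of all genes that rose. The median difference was 0.68, and 13 of 14 were above 0, against 46.4% of all genes. Nrn1, a neuritin of excitatory neurons, was 7.47, 8.74, 6.49, 6.75 and 7.57 at 12 months and 9.65, 9.85, 9.79 and 8.66 at 18 months, a rise of 2.06 ± 0.37 (adjusted p = 0.000645). Slc17a7 was 10.06, 10.79, 8.88, 8.84 and 10.12 and then 11.60, 11.77, 11.66 and 10.78, a rise of 1.69 ± 0.48 (adjusted p = 0.0288). The age groups of both genes overlapped slightly, WT-461 of the younger group lying above WT-431 of the older. Tbr1 rose by 1.42, Rasgrf2 by 0.99, Neurod2 by 0.73 and Cux2, a transcription factor of upper cortical layers, by 0.62. The mean over the list was 7.60 to 8.36 at 12 months and 8.33 to 9.06 at 18 months, and at 6 months it was 8.40 to 8.99, so the 12-month mice were the low group. The number of markers that rose was 3 without WT-401, 4 without WT-488, WT-508, WT-400 or WT-414, and 7 to 9 otherwise. Slc17a7 and Tbr1 did not pass when any 1 of those 5 was left out, and Neurod2 did not without WT-401. The part of these markers in the other results was not tested beyond the fit with a covariate described further on.

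**Figure D3:**
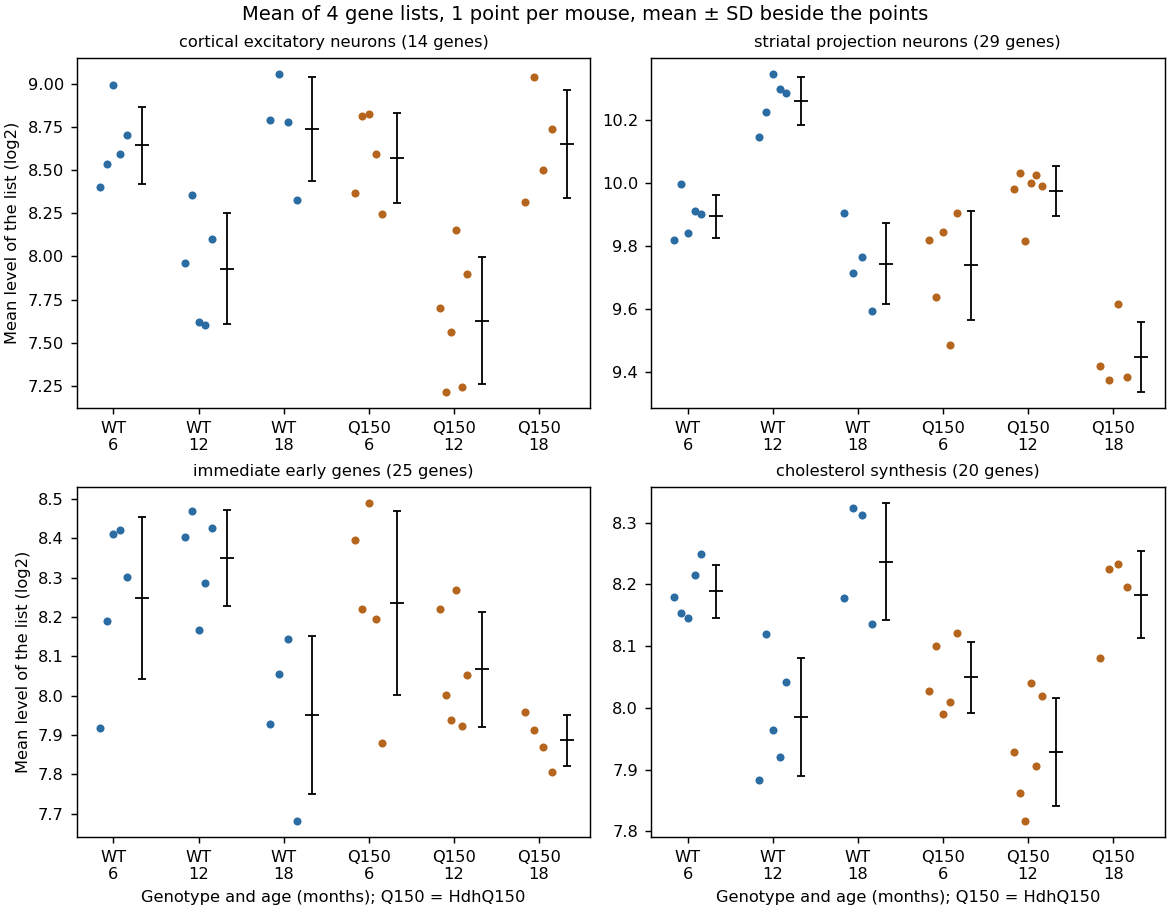
Mean log2 level of 4 gene lists (y axis) in each mouse of the 6 groups (x axis; blue wild type, brown HdhQ150), with the group mean ± SD beside the points. Cortical markers are lowest and projection neuron markers highest at 12 months in both genotypes, and wild-type immediate early genes are lowest at 18 months.

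Genes of synapses and channels divided between the directions. Of 21 presynaptic vesicle genes 11 rose and 3 fell (median 0.27), against 3.81% and 2.07% of all genes. Synaptophysin, Syp, rose by 0.59 (adjusted p = 3.33e-05), and the vesicle proteins Sv2b and Sv2a by 0.88 and 0.32. The release-site scaffold Rims1 rose by 0.45 and the synapsin Syn2 by 0.34. The number that rose was 6 or 7 without WT-488, WT-508, WT-400, WT-401 or WT-414, and the number that fell was 1 without WT-488 or WT-508 and 0 without WT-401. Of 27 glutamate receptors and postsynaptic scaffolds 6 rose and 2 fell: the scaffold Dlgap1 rose by 0.77, the kainate receptor subunits Grik1 and Grik4 by 0.70 and 0.39, and the metabotropic receptor Grm4 fell by 0.36. Without WT-488, WT-527, WT-400 or WT-401 1 of this list fell. Of 12 GABA receptor genes 3 rose, Gabra3 as above, Gabbr2 (a subunit of the metabotropic GABA receptor) by 0.85 and Gabra5 by 0.59.

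Of 37 potassium channel genes 9 rose and 8 fell, against 3.81% and 2.07% of all genes. Kcnj3 and Kcnk9, a leak channel, rose by 1.06 and 0.88. Kcnab1, Kcnd2 and Kcnip2, which belong to the fast-inactivating current of striatal dendrites, differed by -0.70, -0.48 and -0.47. Kcnd2 was 10.49 to 10.72 at 12 months and 10.09 to 10.17 at 18 months, so its age groups were apart. Among 33 genes of calcium signalling 6 rose and 7 fell. The release channels Ryr1 and Ryr3 differed by -0.63 and -0.57, the channel subunit Cacna2d3 by -0.57 and the kinase Camk4 by -0.48, while Ncald, a calcium sensor, rose by 0.71. The number of calcium genes that rose was 3 without WT-488, WT-508 or WT-401, and that of potassium channel genes was 5 without WT-527.

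Immediate early genes, which are transcribed within minutes of neuronal firing, were lower at 18 months. Of 25 measured, 14 fell and 0 rose, against 2.07% of all genes that fell. The median difference was -0.45, and the age groups did not overlap for 12 of the 14, against 72.6% of all called genes. Nr4a1, an orphan nuclear receptor, was 10.44, 10.40, 10.17, 10.54 and 10.71 at 12 months and 8.87, 9.21, 9.66 and 8.38 at 18 months, a difference of -1.45 ± 0.25 (SE; adjusted p = 0.000379). Its relative Nr4a3 differed by -0.82, Egr1 by -0.68 and Per1, a clock gene that activity also induces, by -0.55. WT-431 had the lowest list mean, 7.68, against 7.93 to 8.14 in the other 18-month mice and 8.17 to 8.47 at 12 months. Without it 9 genes fell. All of the 14 differed in the same direction in HdhQ150 mice, where 3 passed. The other 11 of the 25 genes did not pass in wild type. Among them was Nr4a2, a relative of Nr4a1 singled out after its values were seen, at a wild-type difference of 0.76 (adjusted p = 0.17).

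Activity reaches such genes through the factor CREB, which binds a palindrome whose core is TGACG, and through SRF, which binds the CArG box. The upstream sequences of Egr2, Nr4a1, Per1 and Nr4a3, the 4 of smallest p, are shown because these elements can be read in them. They are the 250 bases before an annotated start in RefSeq, build GRCm38.p6, all on the + strand (Egr2 at chr10:67537619-67537868, Nr4a1 at chr15:101266596-101266845, Per1 at chr11:69098699-69098948 and Nr4a3 at chr4:48045055-48045304). For a gene with several starts the middle one by position was taken, and for Per1, which has 2, the one of lower coordinate. Capitals mark TGACG or its reverse complement CGTCA and, in Egr2, 1 CArG box.
Egr2: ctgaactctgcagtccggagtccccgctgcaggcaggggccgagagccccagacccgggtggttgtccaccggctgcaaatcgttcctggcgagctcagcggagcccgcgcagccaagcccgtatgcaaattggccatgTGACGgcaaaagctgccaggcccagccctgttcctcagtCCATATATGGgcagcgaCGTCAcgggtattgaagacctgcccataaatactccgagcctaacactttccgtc
Nr4a1: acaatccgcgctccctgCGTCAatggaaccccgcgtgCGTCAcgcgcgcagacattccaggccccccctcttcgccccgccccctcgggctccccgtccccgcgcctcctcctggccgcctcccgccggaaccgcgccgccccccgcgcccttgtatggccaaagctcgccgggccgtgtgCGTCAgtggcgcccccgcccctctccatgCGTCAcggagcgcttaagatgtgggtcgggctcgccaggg
Per1: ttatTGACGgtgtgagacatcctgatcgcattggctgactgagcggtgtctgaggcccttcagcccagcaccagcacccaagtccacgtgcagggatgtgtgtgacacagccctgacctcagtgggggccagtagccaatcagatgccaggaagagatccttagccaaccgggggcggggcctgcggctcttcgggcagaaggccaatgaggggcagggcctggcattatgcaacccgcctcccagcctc
Nr4a3: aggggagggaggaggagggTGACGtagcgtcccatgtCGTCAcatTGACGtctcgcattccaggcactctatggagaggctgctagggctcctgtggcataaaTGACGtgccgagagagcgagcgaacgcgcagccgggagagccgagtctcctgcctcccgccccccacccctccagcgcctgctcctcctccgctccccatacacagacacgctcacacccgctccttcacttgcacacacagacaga
Egr2 held 2 cores beside its CArG box, Nr4a1 and Nr4a3 held 4 cores each and Per1 held 1. In windows of 300 bases, which add 50 bases after the start, TGACG on either strand was found for 23% of 27025 genes, for 15 of the 19 immediate early genes that have a window and for 10 of the 11 of those that fell. The full palindrome TGACGTCA, which also counts as TGACG, was found for 2.03% of genes and for 1 of the 11, and the CArG box for 1.81% and for 1 of the 11. The motifs were chosen after the values were seen, and a match is a description of these letters alone.

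Clock, glucocorticoid and chaperone genes were examined next, beside the 2.07% of all genes that fell and the 3.81% that rose. Of 19 clock genes 2 fell and 0 rose, Per1 and Arntl (-0.25), and Arntl did not pass without WT-461, WT-508, WT-527, WT-401 or WT-431. Of 19 genes that glucocorticoids induce, 4 fell and 1 rose. Sgk1, a kinase, was 9.41, 9.13, 9.38, 9.46 and 9.18 at 12 months and 8.49, 8.75, 8.48 and 8.63 at 18 months, a difference of -0.72. Pdk4 and Per1 are members as well, the metallothionein Mt1 differed by -0.28, and the transcription factor Zbtb16 rose by 0.74 (not past the threshold without WT-401). Mt1 did not pass when any of the mice other than WT-454 was left out. Of 23 heat shock and chaperone genes 3 fell (median -0.13): Hsph1, a cytosolic chaperone, by 0.35, and the endoplasmic reticulum proteins Creld2 and Hspa5 by 0.34 and 0.33 (Hspa5 not past the threshold without WT-461, WT-508, WT-400 or WT-414).

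Among glial genes, Gfap and C4b rose. Counts of glial lists are read against the 3.81% of all genes that rose and the 2.07% that fell. Gfap, the intermediate filament of astrocytes, was 7.63, 7.57, 7.88, 8.04 and 8.11 at 12 months and 8.99, 8.71, 9.19 and 8.28 at 18 months. It rose by 0.95 ± 0.16 (SE; adjusted p = 0.000384), with no overlap. C4b, a complement component made by glia, was 7.86, 7.86, 8.24, 8.11 and 8.37 and then 8.91, 8.81, 9.11 and 8.39, a rise of 0.71 ± 0.11 (adjusted p = 9.11e-05). The highest 12-month mouse and the lowest 18-month mouse differed little for C4b, yet the groups did not overlap. Serpina3n, a protease inhibitor of reactive astrocytes, was 8.93, 7.73, 7.81, 8.94 and 7.71 and then 9.45, 8.30, 9.63 and 10.12. Its groups overlapped and its rise of 1.32 ± 0.39 (adjusted p = 0.0406) was lost when any of these mice was left out: WT-461, WT-488, WT-527, WT-400, WT-414 and WT-431. Osmr, a cytokine receptor, rose by 0.20 but did not pass when any mouse was left out. In all 4 of 17 reactive astrocyte genes rose and 0 fell (median 0.01), 2 where any of the 6 mice named for Serpina3n was left out, and 2 of 19 astrocyte genes rose, Gfap and the water channel Aqp4 (0.27; not past the threshold without WT-454, WT-461, WT-527, WT-401, WT-414 or WT-431).

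Of 22 homeostatic microglial markers 2 rose (median 0.12, with 18 above 0 against 46.4% of all genes), the complement subunit C1qb (0.51) and Ly86 (0.46). Neither passed without WT-400, WT-401 or WT-414. Of 19 genes of activated microglia 2 rose, the chemokine Ccl3 by 0.51 (from 6.22 to 6.69 at 12 months to 6.77 to 7.14 at 18 months) and Gpnmb by 0.35. The number was 1 without WT-461, WT-488, WT-527, WT-414 or WT-431. C4b was the 1 of 17 complement and antigen presentation genes that passed. In the oligodendrocyte lineage 1 of 20 myelin genes rose (Apod by 0.26; 0 without WT-454, WT-461, WT-400, WT-401 or WT-414), 1 of 14 genes of newly formed cells rose (Rras2 by 0.61) and 1 of 12 precursor genes fell (Cacng4; 2 without WT-454). Over all genes 3.81% rose and 2.07% fell, and calls of 1 or 2 genes in these lists are description only. Myelin basic protein, Mbp, was 11.38 to 11.48 at 12 months and 11.28 to 11.45 at 18 months, a difference of -0.06 (adjusted p = 0.782).

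Of 20 genes of cholesterol synthesis 6 rose and 0 fell (median 0.18), against 3.81% of all genes that rose. All 20 had a difference above 0, against 46.4% of all genes. Hmgcs1, which makes the precursor of mevalonate, was 9.04, 9.38, 8.85, 9.05 and 9.23 and then 9.75, 10.08, 9.71 and 9.32, a rise of 0.59. WT-431 overlapped the younger group and the other 3 did not. Nsdhl rose by 0.41, Fdft1 (squalene synthase) by 0.43, Sc5d by 0.39 and Dhcr7 by 0.25. Dhcr7 did not pass without WT-488, WT-401 or WT-414. Lists of energy and protein turnover are read against the 3.81% of all genes that rose and the 2.07% that fell. In them 1 of 40 genes of the respiratory chain and ATP synthase (Ndufb9, 0.25) and 2 of 31 proteasome subunits (Psmb5 and Psmc4, 0.19 each) rose, and none of these 3 passed throughout when mice were left out. Of 30 lysosome and autophagy genes 2 rose (Ctsl by 0.23 and Glb1 by 0.20; 0 without WT-488, WT-508, WT-527, WT-400, WT-401 or WT-414, and 4 without WT-431). Rpl13 was the 1 of 31 ribosomal protein genes that fell (-0.27; 0 without WT-401, 2 without WT-527). Gpx6, a glutathione peroxidase, differed by -0.88 and with Mt1 made up the 2 of 24 genes of oxidative stress defence that fell (1 without any 1 mouse other than WT-454, and 4 without WT-454).

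The remaining lists add markers of cells at the edge of the tissue and of proliferation. Their counts are read beside the 3.81% of all genes that rose and the 2.07% that fell. Of 18 genes of neuroblasts and neurogenesis 3 fell, the homeobox genes Dlx5 and Dlx6 by 0.61 and 0.44 (Dlx6 not past the threshold without WT-401) and Ccnd2 by 0.41, and 2 rose, Stmn1 by 0.78 and Dcx by 0.37 (1 without WT-414 or WT-431). Islr was the 1 of 21 genes of collagens and meningeal fibroblasts that rose (0.56; 0 without WT-414), Phlda3 the 1 of 17 p53 and senescence genes (0.35; 0 without WT-488, WT-527, WT-400, WT-401 or WT-414) and Cd4, a marker of lymphocytes and also of other immune cells, the 1 of 15 lymphocyte genes that fell (-0.48). In limma's test 0 genes passed among 15 of the choroid plexus, 18 of ependyma, 17 of endothelium, 15 of mural cells, 24 of the interferon response, 19 of the cell cycle, 21 clustered protocadherins, 12 histones, 3 of blood and 15 of thalamic, pallidal and septal neurons. At an unadjusted p under 0.05 these lists held 0, 0, 2, 1, 3, 1, 2, 3, 0 and 3 genes. Leaving out 1 mouse brought 1 protocadherin (WT-488 or WT-431), 1 endothelial gene (WT-431), 1 histone (WT-454) and 2 cell cycle genes (WT-454) past the threshold. Ttr, which the choroid plexus makes in large amounts, varied between 7.52 and 10.08 at 12 months and between 7.58 and 9.01 at 18 months (adjusted p = 0.824). The thalamic, pallidal and septal mean was 7.05 to 7.26 at 12 months and 7.17 to 7.28 at 18 months apart from WT-431, which had 7.99.

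**Figure D4:**
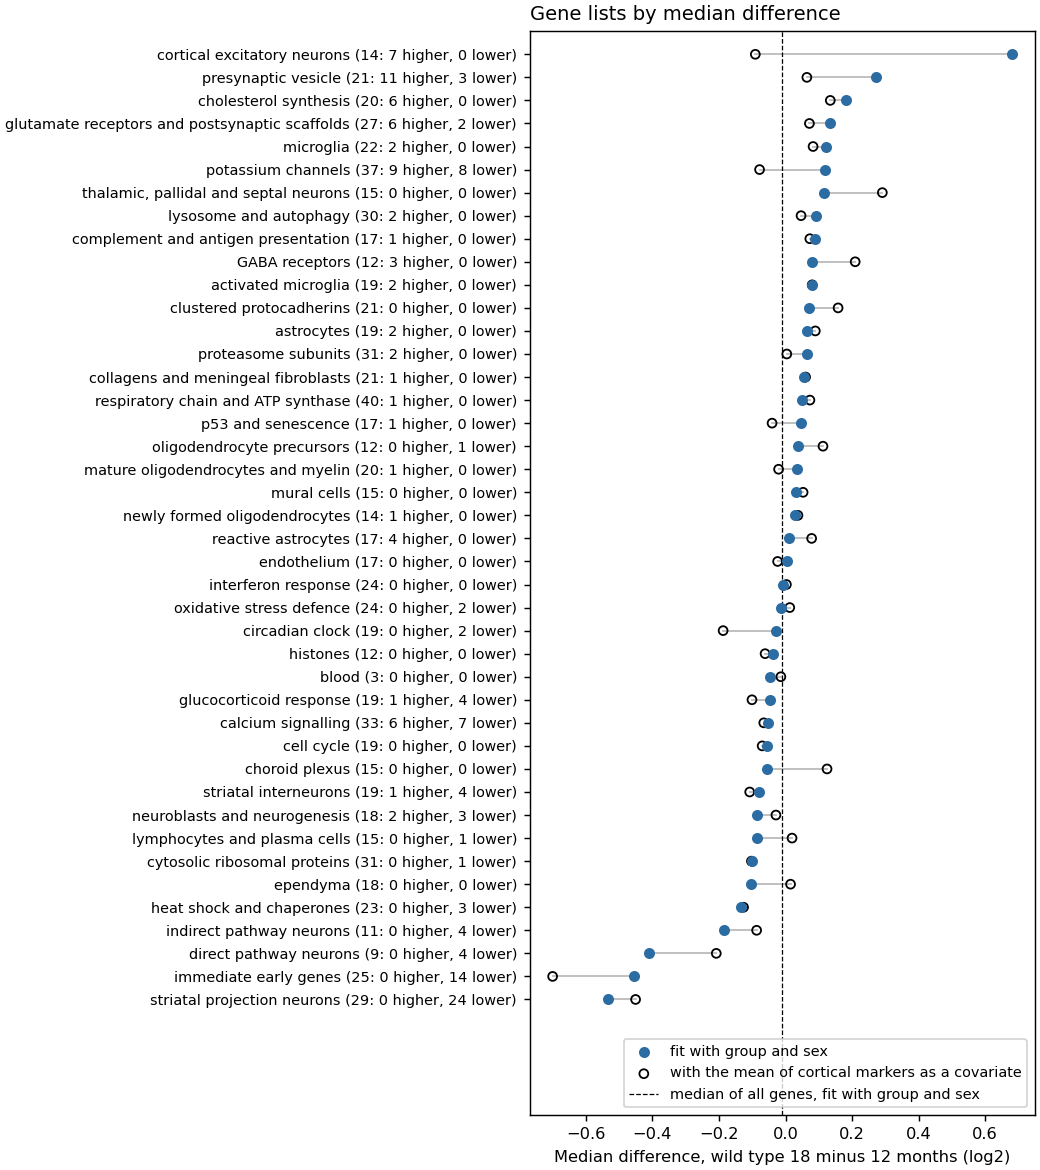
Median difference between 18 and 12 months in wild-type mice (x axis, log2) for 42 gene lists (y axis, with the genes measured and those past the threshold in each direction), as filled points, and the same with the mean of cortical markers as a covariate, as open points. Projection neuron and immediate early genes lie farthest below 0 in both fits, while the cortical list, highest at 0.68, moves to -0.09 with the covariate, which is its own mean.

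Because the cortical markers differed between the ages, the fit was repeated with their mean on each array as a covariate, an alternative added after the data were seen. The covariate differs between the ages itself, so this fit also takes out any age difference that runs parallel to it. With it 223 genes (1.12%) passed, 82 higher (0.411%) and 141 lower (0.707%). Of these, 185 were among the 1171 (15.8%), all with the same sign, 76 higher and 109 lower. All 24 genes described first kept their direction and passed. Their differences were at least 0.43 among those that rose and -1.76 to -0.46 among those that fell. Having been chosen by smallest p on these same arrays, they add no separate support here. In this fit 14 immediate early genes fell, 13 of them the same as before, with a median for the list of -0.70, and Egr2 differed by -1.76 and Nr4a1 by -1.84. C4b rose by 0.76 (adjusted p = 0.00297) and Gfap by 0.89 (adjusted p = 0.0298). Of the 24 projection neuron markers 14 passed, and the list's median was -0.45. The markers of the output pathways mostly lost their calls: 0 of the 4 in the direct pathway passed (Drd1 at -0.42, adjusted p = 0.0908) and 1 of the 4 in the indirect pathway, Drd2 at -0.55 (adjusted p = 0.0218), while Penk at -0.31 did not (adjusted p = 0.208). None of the 5 interneuron genes passed. Of the receptor genes Gabra3 passed among 3 for GABA and Grik1 among 8 for glutamate. In the presynaptic list 2 genes passed (Syp and Sv2a), and in the cholesterol list 0, with a median of 0.13. The cortical list holds 0 calls in this fit, which its own mean as the covariate brings about by construction.

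HdhQ150 mice of the same ages share no array with the wild-type comparison, but both comparisons come from the same fit and sex term. A day of dissection or array shared by the mice of an age cannot be told apart from age in either genotype. In HdhQ150 mice 1154 genes passed (5.79%), 833 higher and 321 lower at 18 months. With the cortical covariate 38 genes passed in them. Of the 1171 genes called in wild type 1163 (99.3%) had the same sign in HdhQ150 mice, against 72.1% of all genes, and 726 were called in both, all with the same sign, which is 62.0% of the wild-type list and 62.9% of the HdhQ150 list. Across all genes the differences correlated with r = 0.76 and rho = 0.60, as a description over genes, which are not independent replicates. Nrn1 rose by 2.38, Slc17a7 by 2.54 and Sphkap by 1.16 in HdhQ150 mice, and Rxrg differed by -1.09 and Drd2 by -0.86. The projection neuron markers had a median of -0.54 in HdhQ150 mice and the cortical markers one of 0.69, close to the wild-type medians given above. The HdhQ150 mean of the cortical list was 7.63 ± 0.37 (n = 6) at 12 months and 8.65 ± 0.31 (n = 4) at 18 months.

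The test of the difference between the genotypes called 0 genes in limma (smallest adjusted p 1.0). In it 412 genes (2.07%) had an unadjusted p under 0.05, 73 of them among the 1171. That number depended on WT-454: without this mouse it was 2324, with 0 called, and without any other 1 mouse it was 302 to 705. Some leading genes had unequal sizes without passing. Egr2 differed by -0.84 in HdhQ150 mice against -1.54 in wild type, a gap of -0.70 ± 0.24 (SE), and Stmn2 by 0.52 against 0.96, a gap of 0.43 ± 0.11. Ryr1 and Pdk4, at -0.63 and -0.53 in wild type, had -0.14 each in HdhQ150 mice, with gaps of -0.49 ± 0.11 and -0.40 ± 0.10. C4b rose by 0.36 in HdhQ150 mice against 0.71, a gap of 0.35 ± 0.15. All 14 immediate early genes that fell had the larger size in wild type, with medians of -0.59 and -0.38 over these genes, which were chosen by the wild-type values. The gaps of Egr2, Stmn2, Ryr1, Pdk4 and C4b each had an adjusted p of 1.0 in limma.

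**Figure D5:**
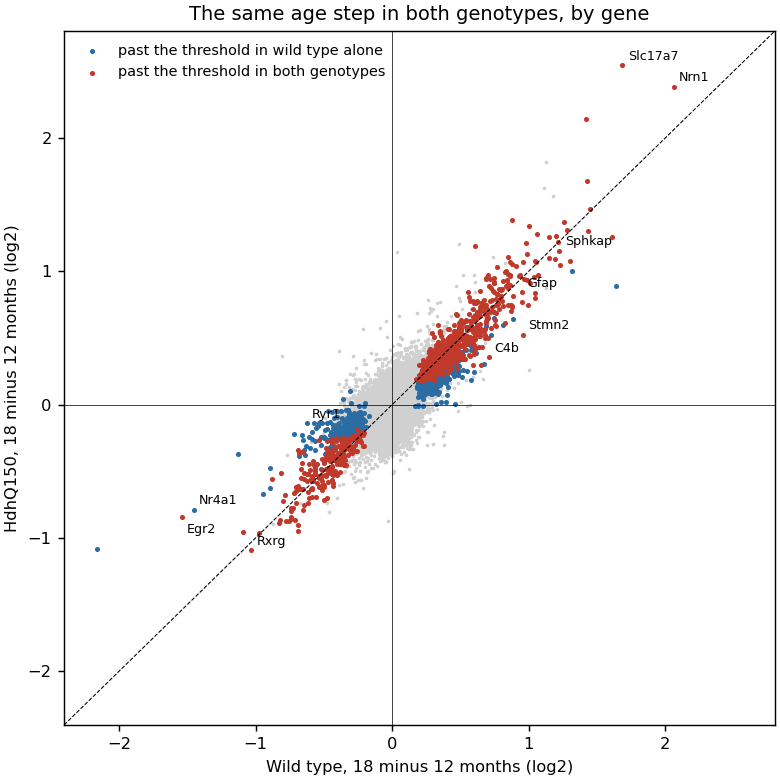
Difference between 18 and 12 months in wild-type mice (x axis, log2) against the same difference in HdhQ150 mice (y axis), 1 point per gene, with a dashed line where both are equal. Genes called in wild type are coloured, red where HdhQ150 mice passed too (726 genes), and 1163 of the 1171 lie in the quadrants of equal sign.

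The 6-month wild-type mice place these levels, though both other ages share arrays with the comparison above, so that values are given side by side only. Stmn2 was 10.93 ± 0.10 at 6 months (n = 5), 9.96 ± 0.21 at 12 and 10.93 ± 0.04 at 18 months. The same order held for Sphkap (9.14, 8.02 and 9.27) and, turned over, for Rxrg (9.56, 10.33 and 9.30) and Drd2 (10.80, 11.41 and 10.69). Over the 759 genes that rose from 12 to 18 months the median difference was -0.37 between 12 and 6 months and 0.05 between 18 and 6 months. Over the 412 that fell the medians were 0.25 and -0.16. Projection neuron markers had a mean of 9.82 to 10.00 at 6 months, below all 12-month mice. Other genes did not follow that course, or did so only in part. C4b was 7.61 ± 0.06 at 6 months, 8.09 ± 0.23 at 12 and 8.80 ± 0.30 at 18 months, with a difference of 1.18 between 18 and 6 months (adjusted p = 1.19e-07). Egr2 stood at 7.87, 8.39 and 6.89 and differed by -1.07 between 18 and 6 months (adjusted p = 0.000966), Nr4a1 by -1.02, Per1 by -0.53 and Nr4a3 by -0.83. Gfap lay between 7.99 and 8.36 at 6 months, with 7.85 ± 0.24 at 12 and 8.79 ± 0.40 at 18 months. Its 12-month mean was thus below every 6-month mouse, as in the genes with a low 12-month level, and its 18-month mean was above them all.

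Htt itself was 8.87 to 9.20 at 12 months and 9.11 to 9.20 at 18 months, a difference of 0.06 ± 0.07 (SE; adjusted p = 0.801).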

How the data were processed

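Whole-transcript Affymetrix arrays measured total RNA from the caudate nucleus of 29 mice, extracted, per the labels' protocols, with TRIzol-chloroform. The authors deposited log2 levels, for which the submitters' processing notes name RMA and Affymetrix Expression Console without versions. RMA equalises the arrays, so a shift shared by most genes is not visible. Of 35556 probe sets 21789 carry 1 gene symbol, 1621 several and 12146 none. Symbols were updated through the RefSeq gene table of GRCm38.p6 (21698 matched), and the probe set with the highest mean stood for each of 19938 genes.

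limma 3.58.1 in R 4.3.3 fitted all 29 arrays with 6 group means and labelled sex, with a variance trend (residual df 22), and p-values were adjusted over all genes by Benjamini-Hochberg at 0.05, with no fold threshold. Each array is a separate mouse by its label. Named genes are the 12 of smallest p in each direction, up to 5 members of smallest p per list, and 13 genes named whatever their values (Htt, Gfap, C4b and markers among them); clones and predicted genes were skipped (27 called). Members and the 43 lists were chosen with earlier results of these data known. On simulated data with 200 changed genes the fit recovered 29.9% of those changed by 0.3, 83.6% by 0.5 and 95.5% by 1, with 4 of 143 calls false. The simulated noise was independent between genes, with no shift shared by many genes and no array that stood apart. These shares therefore need not hold for the real arrays. Alternatives covered sex, scaling, weights, filters, probe sets and each mouse left out.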

Additional observations from a re-analysis of the deposited data

Results flagged for a closer look

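Single mice stood apart from their group in 12 of 224 gene groups tested (5.36%) by Dixon's gap test, which chance passes about 1 time in 20, and in 10 of 84 list means (11.9%). At 12 months WT-454 was lowest for Dlx6 (7.62) and Xist (5.78), the latter as the male of its group, and highest for Pdyn (8.60). WT-461 was highest for Gpx6 (8.58), Syp (10.82) and Syt17 (7.93). WT-488 was highest for Tacr1 (9.12) and lowest for Zbtb16 (7.91). At 18 months WT-414 was highest for Osmr (6.85), WT-401 was highest for Ppm1e (9.28), and WT-431 was lowest for Rras2 (6.74) and Slc17a7 (10.78).

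Among list means, WT-454 was lowest for GABA receptors (9.19), clustered protocadherins (6.60), histones (8.14) and proteasome subunits (8.52), and highest for lymphocyte genes (6.55). At 18 months WT-401 was highest for glutamate receptors (9.43) and WT-400 for the interferon response (6.87). WT-431 was highest for neuroblast genes (7.71) and for thalamic, pallidal and septal neurons (7.99), and lowest for p53 genes (7.38).

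Outside the named genes, 101 of 12146 probe sets without a gene symbol (0.832%) passed between 12 and 18 months, 64 higher and 37 lower, in a fit over all probe sets.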

How the results depend on the processing

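The 1171 calls between 12 and 18 months became 2027 with array weights and 223 with the cortical covariate, an alternative added after the data were seen. The other alternatives, apart from leaving out 1 mouse, gave 1001 to 1514. Among them were females by label (1324), only the groups compared (1425) and the fit without WT-454 and HdhQ150-1023 (1514). Leaving out 1 mouse gave 696 to 1437. In HdhQ150 mice the 1154 calls became 707 with only the groups compared, 2171 with array weights, 1787 without WT-454, the array that stood apart, and HdhQ150-1023, whose Xist level goes against its labelled sex, and 38 with the covariate, and 582 to 1256 without 1 mouse. The test between genotypes called 0 genes under every alternative run. At an unadjusted p under 0.05 it gave 302 to 2324 genes without 1 mouse, the most without WT-454. It gave 1690 in females by label, 2368 without WT-454 and HdhQ150-1023, and 2951 with array weights. With the covariate Slc17a7 turned to -0.13, Tbr1 to -0.11 and Ttr to 0.15. The covariate's own make-up includes Slc17a7 and Tbr1, and for Ttr the cause was not tested. Without the sex term Xist turned to 0.94, where the 12-month mean includes the male WT-454 at 5.78 and the 18-month group holds females only. Of 106 named genes that passed, 76 did so without any 1 mouse. Among the alternatives other than the covariate and the fits without 1 mouse, 89 passed in each one checked by gene. The fold threshold and the fit over all probe sets were not checked by gene, and the filter by level could not judge the genes it removed. No paired analysis was possible because the age groups share no mouse numbers. The 12-month group has 1 male and the 18-month group none, and the number of arrays limits what small changes can be seen.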

Other observations

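Prl and Gh were singled out after their values were seen. Prl, which encodes prolactin, lay between 6.36 and 8.98 in the 12-month wild-type mice (mean 7.79) and between 5.63 and 6.24 at 18 months (mean 5.83), with a mean of 5.74 at 6 months. Its difference of -2.16 (SE 0.45; limma, adjusted p = 0.00249) compares with -1.08 in HdhQ150 mice (adjusted p = 0.170). Gh, which encodes growth hormone, differed by -0.90 (adjusted p = 0.0235), from a range of 7.43 to 8.83 at 12 months to one of 6.84 to 7.18 at 18 months. It lay between 6.66 and 7.28 at 6 months, and in HdhQ150 mice it differed by -0.62 (adjusted p = 0.145). The age groups did not overlap for either gene. The other pituitary hormone genes looked up afterwards, Pomc, Cga, Fshb, Lhb and Tshb, did not pass, with adjusted p from 0.192 (Cga) to 0.958 (Lhb).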
